A study of Mus musculus with 28 samples.

Results

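The 33 genes described here encode factors of 4 DNA repair routes: nucleotide excision repair (11 genes), base excision repair (11 genes), mismatch repair (4 genes) and non-homologous end joining (7 genes). They were chosen by name, with earlier results of these data known. Each was read from its brightest probe set that is annotated to that gene alone. Such a probe set was used for 32 of the 33, among 18193 genes tested, and the end-processing nuclease gene Dclre1c was not analysed here. Levels and differences are log2 values, so a difference of 1 is a 2-fold change.

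Nucleotide excision repair cuts out a short strand around a bulky lesion that is found either along the genome or by a stalled RNA polymerase. Base excision repair removes a damaged base with a glycosylase and refills the gap, mismatch repair removes mispaired bases left by replication, and end joining ligates both ends of a double-strand break. B cells also use uracil excision, mismatch factors and end joining when they rearrange, mutate and switch their antibody genes.

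Primary lymphoma cells came from lymph nodes of Emu-myc transgenic C57BL/6 mice, in which an immunoglobulin heavy chain enhancer drives Myc in the B lineage. All cells of both groups carried the transgene and a retroviral Bcl2 (MSCVpuro), which blocks apoptosis, were selected with puromycin, and grew on NIH 3T3 fibroblasts irradiated with 20 Gy. Each of 14 lymphomas gave 1 culture left untreated and 1 treated in vitro with Adriamycin (ADR, doxorubicin, a topoisomerase II poison that breaks DNA) at 0.05 µg/ml for 5 days, which makes 28 Affymetrix arrays. The design describes the treated cells as largely senescent, so the comparison asks how repair gene expression differs between growing and drug-arrested cells of the same tumour, in a model where Bcl2 removes the apoptotic response. The mouse's age is not given in the sources used here. Each tumour has 1 array per condition, so p-values of the changes measure the spread of the change between tumours. Differences between cultures and arrays are part of that spread and cannot be told apart from it.

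Several facts of the arrays touch the results. Of 9 B cell markers 5 fell and none rose, and their mean level ran from 8.98 to 10.04 in untreated and from 8.02 to 10.31 in ADR arrays. The B cell receptor gene Cd79a was at 8.58 or above in every array, and the B cell factor Pax5 ran from 5.12 to 5.94, nearer the median probe set. Of 24 fibroblast markers 23 rose, with a mean level of 4.64 to 5.52 in untreated and 5.05 to 9.18 in ADR arrays, and of 14 macrophage markers 10 rose, from 5.22 to 8.71 in untreated and 6.25 to 9.73 in ADR arrays. The 5 T cell markers, with changes from -0.09 to 0.09, did not pass the test, and 2 of 7 granulocyte markers rose. All 24 genes of a mitosis list fell, and the ADR array of lymphoma 1570 stood apart in the 3′ minus 5′ signal of Gapdh (0.92, next highest 0.38). In RNA of whole cultures, fewer cells of a type and less RNA per cell cannot be told apart.

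The repair genes fell more often than they rose after ADR. Of the 32 measured members 15 fell, 4 rose and 13 did not pass the test (limma paired fit, adjusted p under 0.05 over all genes), where 13.4% of all genes fell and 15.3% rose. The median change over the members was -0.27, beside -0.00 over all genes tested. The 4 routes differed in their counts: mismatch repair had 4 of 4 members lower, base excision repair 7 of 11 lower, end joining 2 of 6 lower, and nucleotide excision repair 2 lower and 4 higher of 11. The members that fell by at least 2-fold were Exo1, Neil3, Ung and Ddb2. In each of the 14 lymphomas 6 members were lower (Mutyh, Neil1, Parp1, Msh6, Pms2 and Exo1), which held for 2.59% of all genes, and no member was higher in each (2.87% of all genes). Most members were measured above the low end of the scale: 30 of 32 lay above the median probe set at 4.74, the exceptions being Ercc6 and Nhej1.

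**Figure D1:**
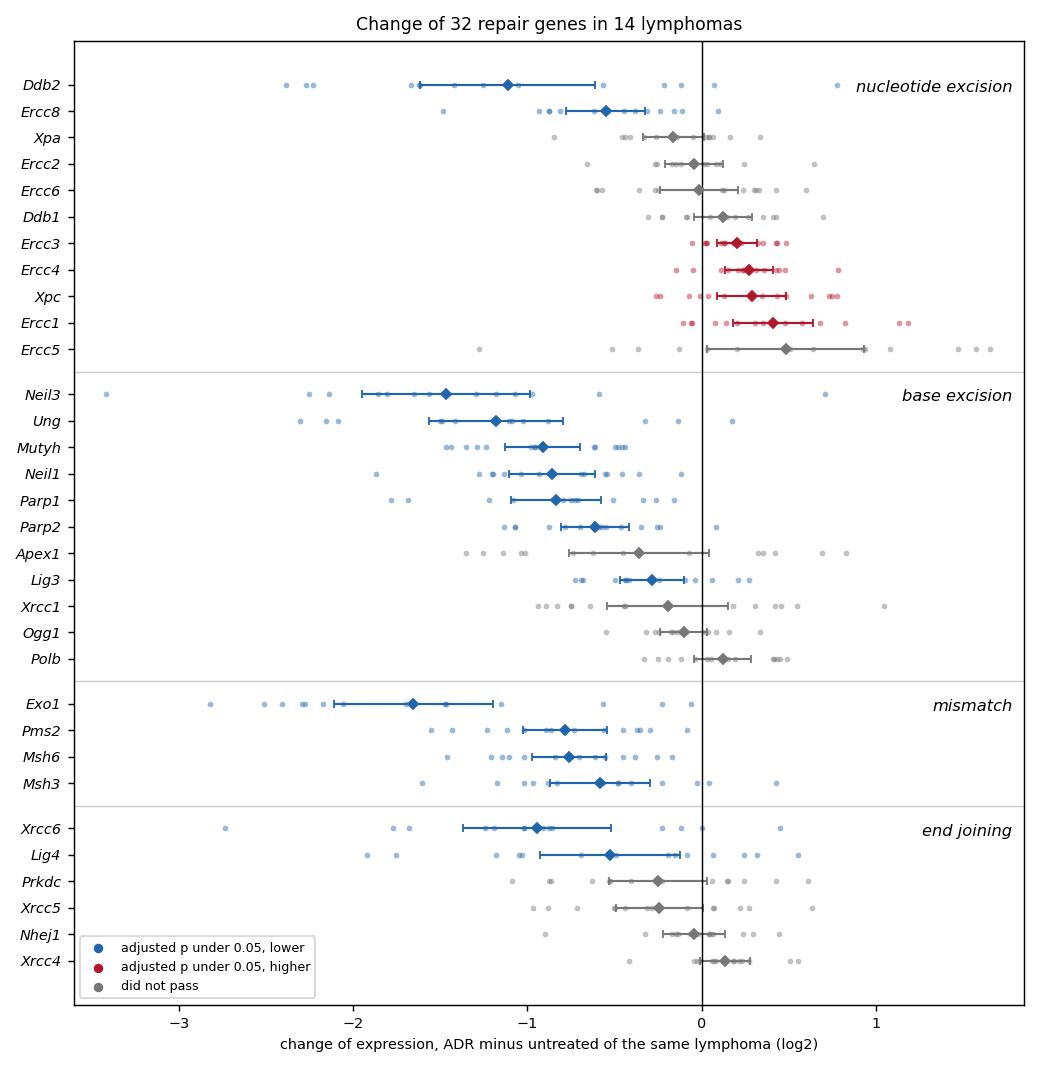
Change of each of the 32 measured repair genes after ADR, as ADR minus untreated of the same lymphoma (x axis, log2). Small points are the 14 lymphomas, diamonds the mean and bars its 95% confidence interval, in blue for genes that fell, red for genes that rose and grey for those that did not pass the test. Blue genes fill the mismatch group, and all 4 red genes lie in the nucleotide excision group.

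Nucleotide excision repair was the mixed route, with its damage sensor Ddb2 and the transcription-coupled factor Ercc8 lower and 4 genes of recognition, unwinding and incision higher. The median change of its 11 genes was 0.12.

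Ddb2 is the damage-binding subunit that, with Ddb1, finds ultraviolet lesions in chromatin. Its level was 6.69 at the lowest, 7.44 at the median and 9.07 at the highest in untreated arrays, and 5.37, 6.40 and 7.51 in ADR arrays. The groups overlapped, with 9 of 14 ADR arrays below every untreated array. Ddb2 fell by 1.11 ± 0.24 (SE, n = 14 pairs; adjusted p = 0.00206), or 2.16-fold, and was lower in 12 of 14 lymphomas, and its second probe set fell too. The tumours differed widely in it, from a change of -2.38 in lymphoma 1467 to 0.77 in lymphoma 403, and lymphoma 5560 stood at 0.07.

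Ddb1, the adaptor that ties Ddb2 to its ubiquitin ligase, changed by 0.12 ± 0.08 (adjusted p = 0.287). The difference between the changes of both subunits was 1.23, with a 95% interval from 0.65 to 1.82, and Ddb1 changed by the higher amount in 12 of 14 lymphomas (exact sign-flip test, adjusted p = 0.00610 over 10 partner pairs).

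Xpc, the general sensor of helix distortion, rose. Its level ran from 6.69 through a median of 7.20 to 7.73 in untreated arrays and from 7.03 through 7.46 to 7.93 in ADR arrays. Both groups overlapped almost wholly, with 1 ADR array (lymphoma 2949) above all untreated ones. The rise was 0.29 ± 0.09 (adjusted p = 0.0312), in 10 of 14 lymphomas. Its call was lost when any of lymphomas 1467, 1570, 2949, 403, 5766, 6054 or 9583 was left out, with changes of 0.25 to 0.28 and adjusted p from 0.0501 to 0.0664.

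The helicases of the repair and transcription factor TFIIH moved differently. Ercc3, whose translocase activity opens the helix, was at 7.52, 8.08 and 8.33 (lowest, median, highest) in untreated arrays and at 7.94, 8.18 and 8.49 in ADR arrays. Only 3 ADR arrays lay above all untreated arrays. Ercc3 rose by 0.20 ± 0.05 (adjusted p = 0.0103), in 13 of 14 lymphomas, while its partner helicase Ercc2 changed by -0.05 ± 0.08 (adjusted p = 0.733). The change of Ercc2 was below that of Ercc3 by 0.25, with an interval of -0.39 to -0.10 for Ercc2 minus Ercc3 (exact sign-flip test, adjusted p = 0.00946), and Ercc2 was the higher one in 3 of 14 lymphomas. Xpa, which verifies the lesion and positions the nucleases, changed by -0.16 ± 0.08 (adjusted p = 0.164).

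Ercc1 and Ercc4 form the nuclease that cuts the damaged strand on its 5′ side, and both rose. Ercc1 was at 7.54, 8.08 and 8.50 in untreated and 7.95, 8.38 and 9.43 in ADR arrays. The highest ADR values came from lymphomas 5560 (9.43) and 403 (9.20), and 6 ADR arrays lay above all untreated ones. Its rise of 0.41 ± 0.11 (adjusted p = 0.00924) was seen in 11 of 14 lymphomas.

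Ercc4, the catalytic subunit, was at 6.66, 6.98 and 7.30 in untreated and 6.82, 7.25 and 7.77 in ADR arrays. Both groups shared most of their range, with 5 ADR arrays above all untreated ones. It rose by 0.27 ± 0.07 (adjusted p = 0.00477), in 12 of 14 lymphomas. The changes of both subunits differed by 0.14, with an interval from -0.20 to 0.48 (exact sign-flip test, adjusted p = 0.450), and by 0.49 with the most variable probe sets (adjusted p = 0.0378). Both rises rest on the brightest probe set: none of 3 further probe sets of Ercc1 and none of 3 of Ercc4 passed the test, and the most variable probe set of Ercc4 changed by -0.28 ± 0.16 (adjusted p = 0.218).

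Ercc5, the nuclease of the 3′ side, varied most among the members that did not pass. It stood at 6.55, 7.58 and 9.47 in untreated and 7.39, 8.23 and 9.57 in ADR arrays. The groups overlapped over most of their range. Its change of 0.48 ± 0.21 (adjusted p = 0.108) ran from -1.28 in lymphoma 2949 to 1.65 in lymphoma 2581, and without lymphoma 2949 it was 0.62 ± 0.19 (adjusted p = 0.0207).

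Ercc8 and Ercc6 act when RNA polymerase stalls at a lesion, Ercc6 as the ATPase that binds the polymerase and Ercc8 as the substrate receptor of a ubiquitin ligase. Ercc8 was at 6.73, 7.31 and 7.63 in untreated and 5.96, 6.70 and 7.24 in ADR arrays. The groups overlapped, with 8 ADR arrays below every untreated array, and the lowest was that of lymphoma 5560. Ercc8 fell by 0.55 ± 0.11 (adjusted p = 9.79e-04), in 13 of 14 lymphomas. Ercc6 changed by -0.02 ± 0.11 (adjusted p = 0.935), and the measured difference of their changes was 0.53 with an interval from 0.23 to 0.84 (exact sign-flip test, adjusted p = 0.00946). The Ercc6 probe set lies below the median probe set, where signals compress a change, so this difference does not show that the transcripts changed unequally. The 120 bases just before each gene's start are shown because these partners act together and Ercc8 fell (RefSeq, GRCm38.p6, both on the + strand; Ercc6 at chr14:32513401-32513520 and Ercc8 at chr13:108158618-108158737). Capitals mark CCAAT on either strand, found back to back at -35 and -30 of Ercc8 and not in this window of Ercc6.
Ercc6: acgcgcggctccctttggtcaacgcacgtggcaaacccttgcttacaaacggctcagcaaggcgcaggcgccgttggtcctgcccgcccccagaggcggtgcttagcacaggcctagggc
Ercc8: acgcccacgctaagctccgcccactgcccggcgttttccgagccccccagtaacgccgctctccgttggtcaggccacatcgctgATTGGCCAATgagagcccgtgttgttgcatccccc

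Of the 4 rises in this route 3 depended on how the arrays were centred. With each array centred on the median of its genes, which shifted the median change of all genes by -0.10, Ercc1 was the member that still rose. The changes of Xpc (0.19 ± 0.10), Ercc3 (0.10 ± 0.07) and Ercc4 (0.17 ± 0.07) kept their sign and no longer passed. The count of members that fell went from 15 to 18, with Xpa, Ogg1 and Xrcc5 added. Over all genes the split was 4207 lower and 2007 higher there (23.1% and 11%), beside 2435 lower and 2790 higher in the values as deposited.

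Of 16 other genes of nucleotide excision repair (remaining TFIIH subunits, single-strand binding protein, ligase parts) 6 fell and 1 rose, with a median change of -0.16. The largest fall was that of Rpa2, a subunit of the single-strand binding protein, at -1.26 ± 0.15 (adjusted p = 2.03e-05). Cul4a, the scaffold of the Ddb1 ubiquitin ligase, rose by 0.30 ± 0.10 (adjusted p = 0.0341).

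**Figure D2:**
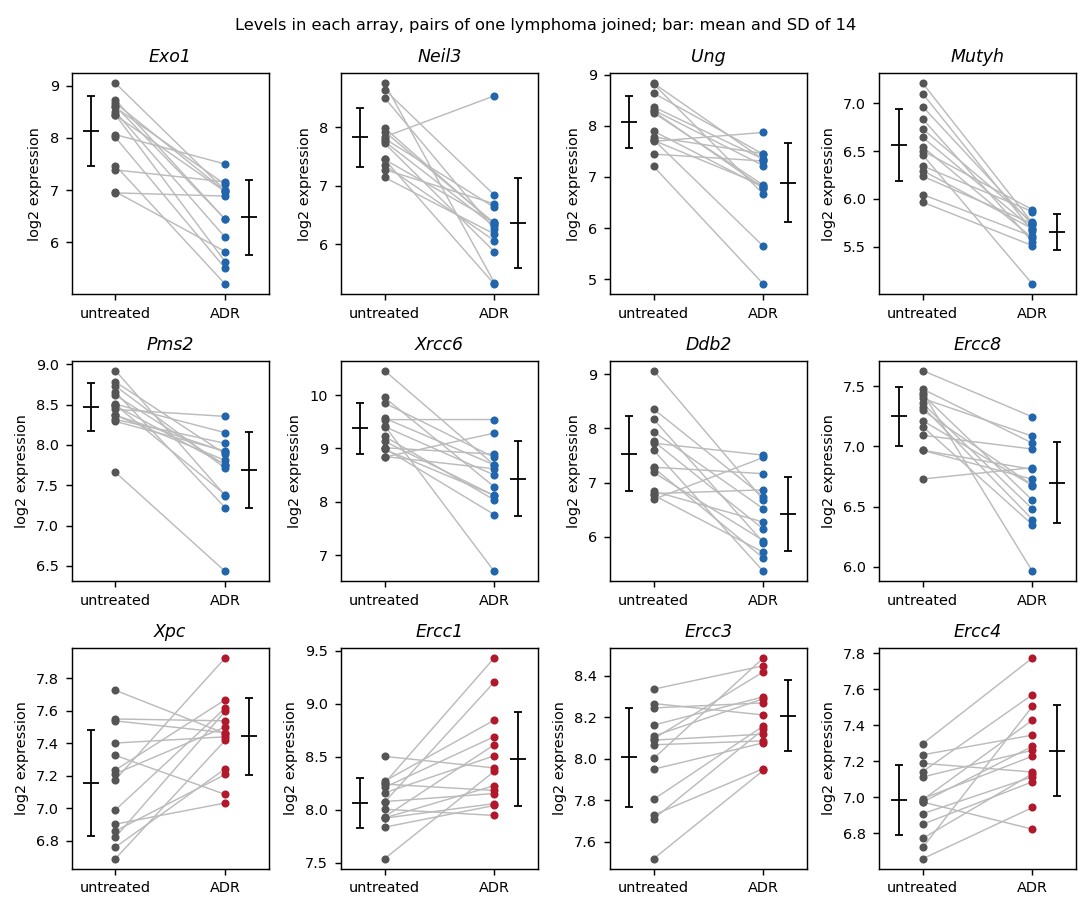
Expression of 12 repair genes in each array (y axes, log2, a separate range per gene), untreated in grey at left and ADR in blue (fell) or red (rose) at right. Lines join both arrays of a lymphoma, and bars give the mean and SD of the 14 arrays of a group. All ADR arrays lie below all untreated arrays for Mutyh and not for the other 11 genes.

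In base excision repair 4 of the 5 glycosylases (Neil3, Ung, Mutyh and Neil1), both break sensors and the ligase Lig3 fell, while the glycosylase Ogg1, the endonuclease Apex1, the polymerase Polb and the scaffold Xrcc1 did not pass the test. Of its 11 members 7 fell and none rose, with a median change of -0.61.

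Neil3, a glycosylase of oxidised bases in single-stranded and crosslinked DNA that is expressed in dividing cells, fell most. It was at 7.14, 7.78 and 8.76 in untreated and 5.31, 6.32 and 8.54 in ADR arrays. All but 1 of the ADR arrays lay below every untreated array, and the exception was lymphoma 9584, which held the highest ADR value. The fall was 1.47 ± 0.23 (adjusted p = 1.62e-04), or 2.77-fold, and ran from -3.42 in lymphoma 2949 to 0.70 in lymphoma 9584.

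Ung removes uracil from DNA, after deamination by the antibody-diversifying enzyme of B cells as well. It stood at 7.21, 8.08 and 8.83 in untreated and 4.90, 7.03 and 7.87 in ADR arrays. Lymphoma 5560 was lowest in both groups, and 7 ADR arrays lay below every untreated array. Ung fell by 1.18 ± 0.18 (adjusted p = 1.55e-04), or 2.27-fold, in 13 of 14 lymphomas, the exception being lymphoma 6054 at 0.17.

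Mutyh removes adenine paired with oxidised guanine. Its level was 5.96, 6.52 and 7.21 in untreated and 5.11, 5.69 and 5.89 in ADR arrays. Each ADR array lay below each untreated array, a separation seen in 0.192% of all genes and in no other member. Mutyh fell by 0.91 ± 0.10 (adjusted p = 1.04e-05), with changes from -1.46 in lymphoma 5043 to -0.44 in lymphoma 5560. Among the members it had the smallest adjusted p, and its ADR values spanned a narrower range than its untreated ones. Those ADR values lay nearer the median probe set at 4.74, and whether low signal narrowed their range was not tested.

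Neil1, a glycosylase of oxidised pyrimidines, fell by 0.86 ± 0.12 (adjusted p = 5.09e-05) in all 14 lymphomas, from -0.12 in lymphoma 2581 to -1.87 in lymphoma 5560. The change of Neil1 exceeded that of Neil3 by 0.61, with an interval from 0.01 to 1.21 (exact sign-flip test, adjusted p = 0.0678). That difference passed without lymphoma 403 (0.70, adjusted p = 0.0412), without 5560 (0.72, adjusted p = 0.0326) and without 9584 (0.75, adjusted p = 0.0195). It also passed with the most variable probe set (1.24, adjusted p = 0.00651) and with the mean of probe sets (0.92, adjusted p = 0.0193). Ogg1, the glycosylase of oxidised guanine itself, changed by -0.10 ± 0.06 (adjusted p = 0.256), so the excision enzymes of that lesion did not pass together.

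Parp1 and Parp2 bind strand breaks and build poly(ADP-ribose) there. Parp1 was at 10.98, 11.40 and 12.01 in untreated and 9.24, 10.60 and 11.50 in ADR arrays, and 9 ADR arrays lay below every untreated one. It fell by 0.84 ± 0.12 (adjusted p = 9.28e-05), in all 14 lymphomas, and all 3 of its further probe sets fell too. Parp2 fell by 0.61 ± 0.09 (adjusted p = 1.30e-04), in 13 of 14 lymphomas, with lymphoma 9584 at 0.08. Parp1 fell further than Parp2 by 0.22, with an interval of -0.39 to -0.05 for Parp1 minus Parp2 (exact sign-flip test, adjusted p = 0.0224), in 12 of 14 lymphomas. That call was lost with the mean of probe sets (-0.14, exact test, adjusted p = 0.213) and in the 11 lymphomas of an earlier series (-0.19, adjusted p = 0.116), and the sign turned with the most variable probe set of each gene (0.05, adjusted p = 0.770).

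Of the 4 members of the later steps, Lig3 passed the test. Apex1, the endonuclease that nicks the strand after the base is gone, changed by -0.36 ± 0.19 (adjusted p = 0.178) and spread from -1.35 in lymphoma 5560 to 0.83 in lymphoma 2949. Polb, the gap-filling polymerase, changed by 0.12 ± 0.08 (adjusted p = 0.285). Xrcc1, the scaffold of the ligation step, changed by -0.20 ± 0.16 (adjusted p = 0.424). Its partner ligase Lig3 fell by 0.29 ± 0.09 (adjusted p = 0.0192), in 11 of 14 lymphomas, and 1 of its 4 further probe sets shared that call. Xrcc1 and Lig3 differed in their changes by 0.09, with an interval from -0.30 to 0.48 (exact sign-flip test, adjusted p = 0.625). A difference between them was therefore not established, though Lig3 passed the test and Xrcc1 did not.

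Of 13 other base excision genes 9 fell and 1 rose, with a median change of -0.36. Lig1, the replicative ligase, fell by 1.45 ± 0.16 (adjusted p = 1.01e-05). Parp3, a further break-activated polymerase, rose by 0.84 ± 0.10 (adjusted p = 2.51e-05).

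All 4 mismatch repair members fell, with a median change of -0.77, and 3 of them were lower in each of the 14 lymphomas.

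Exo1, the exonuclease that removes the strand with the error, had the largest change of all members. It was at 6.95, 8.44 and 9.05 in untreated and 5.19, 6.66 and 7.50 in ADR arrays. Of the 14 ADR arrays 8 lay below every untreated array, while lymphomas 1467 and 5560 were low already without drug. Exo1 fell by 1.65 ± 0.21 (adjusted p = 3.61e-05), or 3.15-fold, and both of its further probe sets fell. The change ran from -2.82 in lymphoma 3769 to -0.06 in lymphoma 1467, with lymphoma 9584 at -0.23.

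Pms2, the endonuclease subunit that nicks the strand to be removed, was at 7.66, 8.49 and 8.92 in untreated and 6.43, 7.78 and 8.35 in ADR arrays. Lymphoma 5560 was lowest in both groups, and 4 ADR arrays lay below every untreated one. Pms2 fell by 0.78 ± 0.11 (adjusted p = 9.76e-05), between -0.09 in lymphoma 9584 and -1.55 in lymphoma 3769.

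Msh6 is the subunit that recognises base mismatches and Msh3 the one that recognises larger loops. Msh6 was at 8.77, 9.66 and 10.41 in untreated and 8.15, 9.11 and 9.59 in ADR arrays. The groups overlapped, with 4 ADR arrays below every untreated array. Msh6 fell by 0.76 ± 0.10 (adjusted p = 3.85e-05). Msh3 fell by 0.59 ± 0.13 (adjusted p = 0.00363), in 12 of 14 lymphomas, with a rise of 0.43 in lymphoma 1467. The changes of both differed by 0.18, with an interval from -0.18 to 0.53 (exact sign-flip test, adjusted p = 0.406), by 0.28 without lymphoma 5560 (adjusted p = 0.0449) and by 0.40 with the mean of probe sets (adjusted p = 0.00610).

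Of 10 other mismatch genes, mostly subunits of the replicative polymerase and clamp loader, 9 fell and none rose, with a median change of -0.96. Rfc4, a clamp loader subunit, fell by 1.55 ± 0.16 (adjusted p = 7.58e-06), and Mlh3, a mismatch factor also used in meiosis, changed by -0.15 ± 0.10 (adjusted p = 0.283).

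In end joining the Ku subunit Xrcc6 and the ligase Lig4 fell, each beside a partner that did not pass the test. The median change of the 6 measured members was -0.25.

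Xrcc6 and Xrcc5 form the ring that binds a broken end first. Xrcc6 was at 8.84, 9.32 and 10.46 in untreated and 6.69, 8.56 and 9.54 in ADR arrays. The groups overlapped in part, with 11 ADR arrays below every untreated array, and the lowest was that of lymphoma 5560. Xrcc6 fell by 0.94 ± 0.20 (adjusted p = 0.00202), in 12 of 14 lymphomas, from -2.74 in lymphoma 5560 to 0.45 in lymphoma 2949. Its second probe set, at a mean level of 3.65 and so below the median probe set, changed by -0.08 ± 0.06 (adjusted p = 0.388).

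Xrcc5 changed by -0.24 ± 0.12 (adjusted p = 0.139), and by -0.31 without lymphoma 1467 (adjusted p = 0.0394). It changed less than Xrcc6 by 0.70, with an interval from 0.35 to 1.05 (exact sign-flip test, adjusted p = 0.00610), in 12 of 14 lymphomas. With the mean of probe sets, which takes in the dim second probe set of Xrcc6, that difference was 0.27 (exact sign-flip test, adjusted p = 0.0267). The 120 bases before each start are shown because both subunits act as a dimer and changed unequally (RefSeq, GRCm38.p6, both on the + strand; Xrcc5 at chr1:72307301-72307420 and Xrcc6 at chr15:82016249-82016368). Capitals mark the letters of an E2F motif at -46 of Xrcc6, read as TTTCCCGC on the other strand, and no searched letters lay in this stretch of Xrcc5.
Xrcc5: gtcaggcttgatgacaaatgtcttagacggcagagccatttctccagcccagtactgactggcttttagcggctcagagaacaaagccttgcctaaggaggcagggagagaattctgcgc
Xrcc6: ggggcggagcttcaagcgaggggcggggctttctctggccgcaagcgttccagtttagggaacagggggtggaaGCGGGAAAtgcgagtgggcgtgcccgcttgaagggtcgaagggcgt

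Lig4, the ligase of end joining, was at 4.96, 6.28 and 7.18 in untreated and 5.03, 5.53 and 6.35 in ADR arrays. No ADR array lay below the lowest untreated one, that of lymphoma 1467. Lig4 fell by 0.53 ± 0.19 (adjusted p = 0.0471), in 10 of 14 lymphomas. The call was lost when any of lymphomas 2581, 2949, 3594, 3769, 403, 5043, 5560, 5766, 6054 or 7050 was left out, with adjusted p from 0.0503 to 0.0967. Xrcc4, the protein that stabilises Lig4, changed by 0.13 ± 0.07 (adjusted p = 0.165), and by 0.17 without lymphoma 2949 (adjusted p = 0.0359). Its second probe set rose by 0.36 ± 0.08 (adjusted p = 0.00308). The changes of Xrcc4 and Lig4 differed by 0.66, with an interval from 0.19 to 1.13 (exact sign-flip test, adjusted p = 0.0188).

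Prkdc, the kinase that Ku brings to the break, was at 6.69, 7.36 and 7.90 in untreated and 6.33, 7.14 and 8.17 in ADR arrays. The groups overlapped, with 4 ADR arrays below and 1 above all untreated arrays. Its change was -0.25 ± 0.13 (adjusted p = 0.180). Nhej1, which bridges the ends with Xrcc4, changed by -0.04 ± 0.08 (adjusted p = 0.769) at a level near the median probe set.

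Of 10 other end joining genes 6 fell and none rose, with a median change of -0.47. H2ax, the histone variant phosphorylated at breaks, fell by 1.56 ± 0.14 (adjusted p = 3.49e-06), and the polymerase Polm changed by 0.42 ± 0.20 (adjusted p = 0.127).

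In all, 10 partner pairs were compared and 6 differed in their measured changes, of which the pair of Ercc6 and Ercc8 rests on a dim probe set and that of Parp1 and Parp2 on the choice of probe set. The gene that changed by the lower amount was Ddb2, Xrcc6, Lig4, Ercc8, Parp1 or Ercc2, so in 4 of these pairs 1 partner fell and the other did not pass. In the pair of Parp1 and Parp2 both fell, and in that of Ercc2 and Ercc3 the latter rose. Such a difference, where neither probe set is dim, is one of unequal change within the arrays and does not show that the partner stayed the same.

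**Figure D3:**
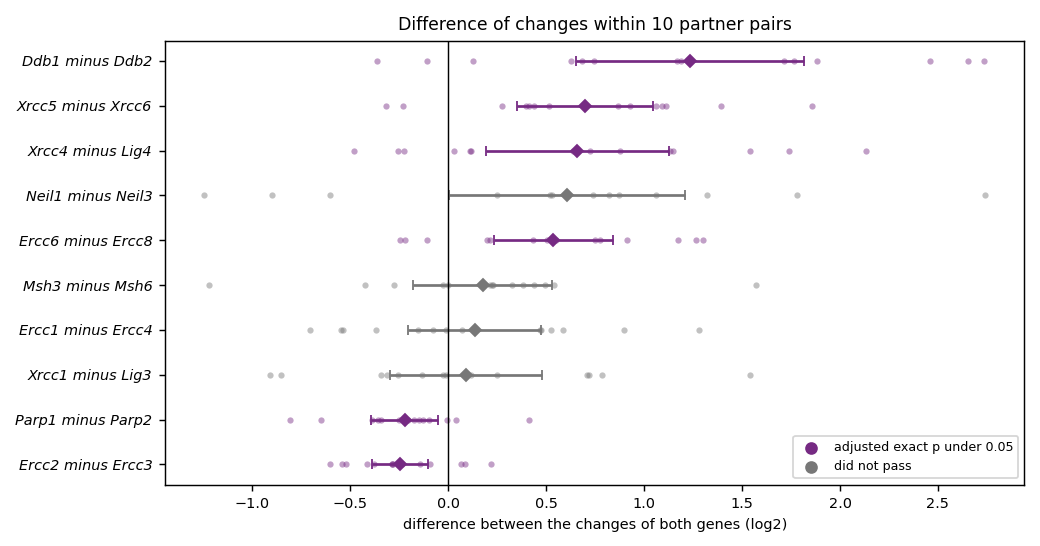
Difference between the changes of both genes in 10 partner pairs (x axis, log2, first gene minus second). Points are the 14 lymphomas, diamonds the mean and bars its 95% confidence interval, in purple where the exact sign-flip test gave an adjusted p under 0.05. The pair of Ddb1 and Ddb2 lies farthest from 0 at 1.23, and 4 pairs in grey did not pass.

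Beside these routes, of 24 homologous recombination and Fanconi genes 22 fell and none rose, with a median change of -0.81. Of 11 p53 target genes 10 rose and none fell, with a median of 0.87. The mitosis list had a median of -1.99, beyond every repair member.

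The lymphomas differed in how many members were lower with drug. Lymphomas 1467 and 5043 had 17 of 32 members lower and lymphomas 403 and 5560 had 25. The median change of all genes in these 4 was 0.017, 0.004, -0.095 and -0.018. The fibroblast markers changed by a mean of -0.11 and 0.50 in lymphomas 1467 and 5043, and of 4.15 and 3.96 in 403 and 5560. Whether these counts follow cell composition was not tested. The median member change ran from -0.06 in lymphoma 1467 to -0.70 in lymphoma 3769. The descriptions call the arrays of 11 lymphomas a reanalysis of earlier samples, and in those 15 members fell and 4 rose, the same 19 as in all 14 (12.4% and 13.9% of all genes). In the other 3 lymphomas no member passed in limma, beside 1 of 18193 genes, and 10 members had an unadjusted p under 0.05, with changes for the called members from -1.11 (Ung) to 0.37 (Ercc4). The difference between the 11 and the 3 passed for no member and for 0.0055% of all genes (limma on the 14 changes). Unadjusted p was under 0.05 for 2 members, Parp2 and Pms2, and the smallest adjusted p was 0.864.

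The change of several members followed the change of the fibroblast list from tumour to tumour. The mean change of that list ran from -0.11 in lymphoma 1467 to 4.15 in lymphoma 403. Of 32 members 9 had a correlation that passed (permutation test of Pearson r over 14 lymphomas, adjusted over 18193 genes), where 15.9% of all genes did. Of the 9, 8 were negative, namely Ercc4, Ercc8, Ung, Apex1, Parp1, Parp2, Msh3 and Pms2 (7.88% of all genes), and Ddb2 was positive (8.05% of all genes). By Spearman's rho Ercc4 (-0.64, permutation test, adjusted p = 0.0940) and Ercc8 (-0.61, adjusted p = 0.114) did not pass. In the 11 lymphomas of an earlier series Ercc4, Ercc8 and Ung did not pass (permutation test of r, adjusted p = 0.118, 0.120 and 0.0825). The median r was -0.43 over the members and -0.07 over all genes.

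Pms2 had r = -0.85 (permutation p = 0.00017, adjusted 0.00406) and rho = -0.84 (p = 0.00042, adjusted 0.0098), and r was -0.81 without lymphomas 403 and 5560, which lie farthest from the median of the list, and -0.89 in the 11. Parp1 had r = -0.83 (p = 0.00029, adjusted 0.00566) and rho = -0.89 (p = 0.00004, adjusted 0.00268), with -0.77 without both lymphomas and -0.82 in the 11. Parp2, Msh3 and Apex1 had r of -0.85, -0.84 and -0.83 and also passed without both lymphomas. Those 5 genes were the ones that did, and the share of all genes in that setting is not given here.

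For Ddb2 the relation ran the other way. In lymphomas 403 and 5560, where the fibroblast list rose most, Ddb2 changed by 0.77 and 0.07. Its r was 0.75 (permutation p = 0.00212, adjusted 0.0206) and rho 0.74 (p = 0.00344, adjusted 0.0338), 0.87 in the 11, and 0.53 (adjusted p = 0.287) without lymphomas 403 and 5560, so its call rests on those tumours. Mutyh showed no such relation that passed (r = 0.10, permutation p adjusted 0.859).

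In a fit with the fibroblast change as a covariate, read at no fibroblast change, 5 members were lower (Ddb2, Mutyh, Neil3, Msh6 and Exo1) and 2 higher (Ercc3 and Ercc4), where 5.12% and 5.99% of all genes were. That point lies at the edge of the measured range. The list mean was below 0 in 1 lymphoma (1467, at -0.11), and the next lowest was 0.46 in lymphoma 2949. There Ddb2 stood at -2.15 ± 0.28 (adjusted p = 7.34e-04), Neil3 at -1.86 ± 0.39 (adjusted p = 0.00700), Exo1 at -1.27 ± 0.37 (adjusted p = 0.0355), Mutyh at -0.97 ± 0.18 (adjusted p = 0.00406) and Msh6 at -0.73 ± 0.18 (adjusted p = 0.0163). The other 12 calls were lost, among them Parp1 at -0.27 ± 0.13 (adjusted p = 0.225), Pms2 at -0.24 ± 0.12 (adjusted p = 0.240) and Xrcc6 at -0.22 ± 0.28 (adjusted p = 0.722). Both other rises were lost as well. Ercc1, the rise that held under centring, stood at 0.06 ± 0.16 (adjusted p = 0.886). Xpc stood at 0.46 ± 0.16 (adjusted p = 0.0806), a larger estimate than in the main fit with a wider error. Without lymphomas 403 and 5560 and with no covariate, 13 members fell and 4 rose (11.2% and 13.5% of all genes), and Lig3 and Lig4 no longer passed. Beyond these fits, the part of cell composition in the falls was not tested.

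**Figure D4:**
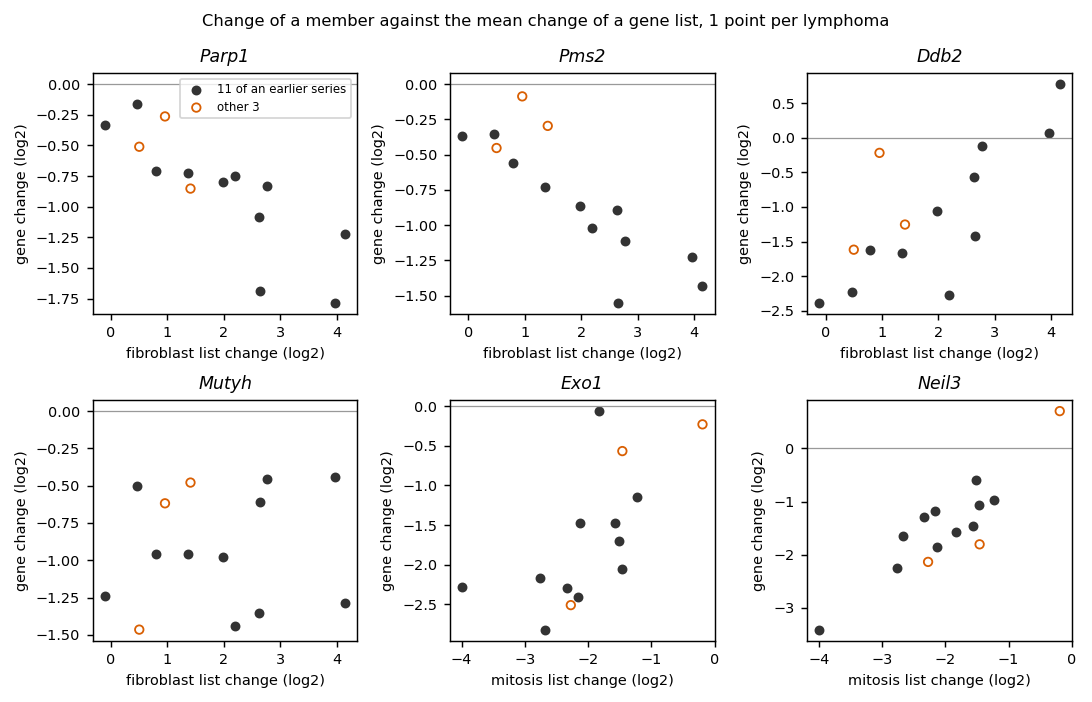
Change of 6 repair genes (y axes, log2, ADR minus untreated) against the mean change of the fibroblast list (Parp1, Pms2, Ddb2, Mutyh) or of the mitosis list (Exo1, Neil3) in the same lymphoma (x axes, log2). Filled points are the 11 lymphomas of an earlier series and open points the other 3. Parp1 and Pms2 decline along the fibroblast axis (r = -0.83 and -0.85), Ddb2 climbs (r = 0.75), and Neil3 climbs along the mitosis axis (r = 0.89).

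The mean change of the mitosis list ran from -3.99 in lymphoma 2949 to -0.19 in lymphoma 9584. Neil3 was the member whose change followed it past the threshold, where 0.813% of all genes did, with r = 0.89 (permutation p = 0.00017, adjusted 0.0251) and rho = 0.73 (p = 0.0042, adjusted 0.307). Without lymphomas 2949 and 9584, which hold both ends of each axis, r was 0.61 (adjusted p = 0.921), so that call rests on them, and in the 11 it was 0.90 (adjusted p = 0.104). Exo1 had r = 0.66 (p = 0.00858, adjusted 0.360) and rho = 0.74 (p = 0.00379, adjusted 0.288), and Xpc r = -0.63 (p = 0.0118, adjusted 0.411) and rho = -0.70 (p = 0.00719, adjusted 0.393).

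A tumour's level of a member before treatment was compared with its level after. A correlation that passed was seen in 3 members, where 8.44% of all genes did, so their share is near that of all genes. Neil1 had r = 0.82 (permutation p = 0.00028, adjusted 0.0119) and rho = 0.85 (p = 0.00015, adjusted 0.0154), Xrcc4 r = 0.77 (p = 0.00198, adjusted 0.0331) and rho = 0.55 (p = 0.0429, adjusted 0.203), and Parp1 r = 0.74 (p = 0.00268, adjusted 0.0392) and rho = 0.72 (p = 0.00476, adjusted 0.0685). Without the 2 lymphomas farthest from the median untreated level, r was 0.65 for Neil1, 0.63 for Xrcc4 and 0.65 for Parp1, and in the 11 it was 0.81, 0.76 and 0.76. Mutyh and Exo1 had r of 0.17 and 0.22 and did not pass.

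Promoter windows from 250 bases before to 50 after the start were at hand in RefSeq (GRCm38.p6) for 26 of the 32 measured members, of which 13 fell. The letters TTTCCCGC, TTTCGCGC, TTTGCCGC or TTTGGCGC, forms of the E2F motif read on both strands, were in 3 of the 13 that fell (Msh3, Msh6 and Xrcc6) and in none of the 13 others, against 3.81% of 14452 tested genes with a window. The Msh6 match lay after the start, at 15. The median share of G and C letters was 62% in windows of members that fell, 54% in the others and 58.7% in tested genes. Whether base composition bears on these matches was not tested. CCAAT was in 5 of the 13 that fell and 8 of the others, against 42.0% of tested genes, and TTTGAA, the letters of the CHR motif of cell cycle genes, was in none and 1, against 15.7%. A match is a run of letters and no shown site of binding.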

How the data were processed

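Expression was measured in 28 arrays, 14 untreated and 14 ADR. The deposited values are log2 expression for 45101 probe sets, made with RMA and Partek 6.5 per the submitters' processing notes; RMA includes background correction and normalization across arrays. No label or file header used here names a genome build. With the supplied 2016 annotation, 34945 probe sets had 1 gene, 34741 of them named through RefSeq; 932 with several genes and 64 controls were left out. The probe set with the highest mean was kept for the 9010 genes with more than 1.

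Paired changes were fitted by limma 3.58.1 (R 4.3.3), with lymphoma as a block and Benjamini-Hochberg adjustment over 18193 genes at 0.05; the script was tested on simulated data. The labels give the lymphoma of each array; same-lymphoma arrays correlated at r from 0.27 to 0.61 in their deviations from the group means, and different ones at a median of -0.08. Partner pairs were tested by exact two-sided sign flips (16384, smallest p 1.22e-04), adjusted over 10 pairs, with Prkdc and Dclre1c not run since Dclre1c had no single-gene probe set in that annotation. Correlations used 100000 two-sided permutations and all genes, in 3 families. All else was computed in Python 3.11.15. The members and lists were chosen with earlier results of these data known. All members are named; levels are given in full for the 3 largest changes of each route and each rise, with the largest fall and rise of the other genes of each route; the compared and marker lists are given as counts and medians or levels. Parp1 is given in full beyond that rule. The number of arrays limits the precision. Alternatives covered the block, probe set choice, centring, quantile normalization, dim genes, left-out lymphomas and covariates.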

Additional observations from a re-analysis of the deposited data

How the results depend on the processing

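Leaving out each lymphoma in turn gave 14 to 16 members lower, 3 to 5 higher and 6 to 8 partner pairs different, and 17 of the 19 called members passed in all 14 such fits, the exceptions being Xpc and Lig4. Over all genes those fits gave 2082 to 2572 lower and 2419 to 2862 higher, beside 2435 and 2790 in the main fit. Without the lymphoma block (no pairing) 13 members were lower and 2 higher, with Xpc, Ercc3, Lig3 and Lig4 lost, and 1723 genes were lower and 1933 higher. A random block kept 15 and 4, beside 2408 and 2750 of all genes. The most variable probe set gave 14 and 3 (2521 and 2631 of all genes) and the mean of probe sets 15 and 3 (2592 and 2574). Quantile normalization gave 15 and 3 (2998 and 2490). The filter on dim genes gave 15 and 4 (2375 and 2517 of 11507 genes). Centring on the gene median gave 18 and 1 (4207 and 2007 of all genes). Centring on the median of all probe sets, added after seeing the data, gave 15 and 4 (2575 and 2650).

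At no fibroblast change 5 were lower and 2 higher, and 10 members changed sign, none of which passed there. Of these, 2 were called in the main fit, Lig3 (0.0207) and Msh3 (0.0511). The other 8 were not called in either fit, among them Apex1 at 0.54 ± 0.19 (limma, adjusted p = 0.0875) and Xrcc1 at 0.28 ± 0.25 (adjusted p = 0.568). At no mitosis change 0 were lower and 0 higher, beside 6 and 17 of all genes and 9 members at an unadjusted p under 0.05 (limma). Of the members called in the main fit, Xpc (-0.23), Ddb2 (0.23) and Neil3 (0.38) changed sign there without passing. A further 2 uncalled members changed sign too. The point of no mitosis change lies outside the list's measured range. The other 3 lymphomas alone gave 0 and 0 by limma (10 at an unadjusted p under 0.05), with fewer samples. With the most variable probe set Ercc4 was at -0.28 and the difference of Parp1 and Parp2 at 0.0487. For the remaining settings the cause was not tested. Correlation with the mitosis list passed for 0 members in permutation tests in the 11 lymphomas, by Spearman's rho, with the mean of probe sets and without the 2 farthest lymphomas, where an unadjusted p under 0.05 was seen in 7, 5, 4 and 3 members. For member counts at an unadjusted p, the share of all genes is not given here, so they show no excess among the members. That with the fibroblast list passed for 5 without the 2 farthest. That with the untreated level passed for 1 in the 11 and 1 by rho. For these counts too the share of all genes is not given here, so they show no excess among the members. Dim members such as Ercc6 and Nhej1 sit close to background, where array signals compress a change.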
